A study of Arabidopsis thaliana with 6 samples.

Results

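NAC genes encode a large family of plant transcription factors, and 65 of them were taken here from 34262 genes listed for Arabidopsis seedlings. They were chosen by symbol, as all listed genes named NAC or ANAC followed by a number, together with AT1G69490, the gene also known as NAP. Of these, 61 had reads and a test, among 23542 genes tested. The libraries were made from total RNA of Col-0 seedlings at 14 days, grown in long days at 22 °C, with 2 libraries from each of 3 genotypes. These genotypes were WT (wild type), jmj28 (a mutant) and JMJ28np5-OE (a line with raised JMJ28). JMJ28 encodes a JmjC-domain histone demethylase of the KDM3 type, enzymes that remove methyl groups from lysine 9 of histone H3. The allele of jmj28, the promoter that drives JMJ28 in JMJ28np5-OE, the number of independent lines and the meaning of np5 are not named in the sources used here. Nothing says whether the libraries of a genotype came from separate cultures, so p-values then reflect the spread between these particular samples, and that spread may be technical.

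NAC factors share a DNA-binding NAC domain at the N terminus and differ in the C-terminal part, which activates or represses transcription. A group of them carries a membrane anchor and enters the nucleus after it is cut off. Members set organ boundaries, drive the thickening of xylem and fibre walls, control leaf senescence, and respond to drought, salt, abscisic acid and jasmonate. Several messengers of the family are cut by the microRNA miR164, which pairs with a site in their coding region.

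Levels are given in RPKM, reads scaled by exon length and library size, and allow comparison between genes. For most genes the reads of both libraries could be worked back for the genotypes with the highest and second-highest mean. The lowest mean is known through the fold change and is marked as derived. Libraries are called deeper and shallower, with 10632893 to 19693228 reads each. A call is an FDR under 0.05 over all genes according to the authors' deposited table of that comparison. JMJ28 itself (AT4G21430, listed as B160) had 6.90 and 6.50 RPKM in WT and 244 and 307 RPKM in JMJ28np5-OE, and its derived mean in jmj28 was 3.19 RPKM. The authors' deposited tables put JMJ28 at a log2 fold change of -1.10 in jmj28 (FDR 3.07e-08) and of 5.38 in JMJ28np5-OE, where the FDR is given as 0, each relative to WT.

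The NAC genes that differed most lie partly beside each other in the genome. NAC018 and NAC019 follow each other on the minus strand of chromosome 1, with 6333 bases and no annotated gene between them, and both were called. NAC055 and NAC056 follow each other on the plus strand of chromosome 3, 7235 bases apart with 1 gene between them, and only NAC055 was called. The 250 bases before the annotated start of these genes are shown because they allow the neighbours to be set side by side, followed by those of NAC029 and of CLPD, a described target of NAC019 and NAC055. The sequences are read on the strand of the gene from the RefSeq TAIR10.1 assembly, in which the coordinates of all 65 members equal those in the deposited tables. Capitals mark the letters CACGTG (the G-box bound by bZIP and bHLH factors), TTGAC (the core bound by WRKY factors), CGCGT (a core bound by calmodulin-binding CAMTA factors) and CATGTG (an element of the CLPD promoter bound by NAC factors), searched on both strands.
NAC018, chr1:19690590-19690839, minus strand: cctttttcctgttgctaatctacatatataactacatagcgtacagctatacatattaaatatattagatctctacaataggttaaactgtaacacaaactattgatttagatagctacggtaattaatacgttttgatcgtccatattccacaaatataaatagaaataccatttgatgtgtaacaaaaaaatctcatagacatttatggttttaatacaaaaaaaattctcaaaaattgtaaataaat
NAC019, chr1:19698483-19698732, minus strand: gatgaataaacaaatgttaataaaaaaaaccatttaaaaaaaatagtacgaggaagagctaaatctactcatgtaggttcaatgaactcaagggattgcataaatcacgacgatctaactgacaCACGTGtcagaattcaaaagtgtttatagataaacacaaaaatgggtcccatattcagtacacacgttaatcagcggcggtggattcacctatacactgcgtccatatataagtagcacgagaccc
NAC055, chr3:5234207-5234456, plus strand: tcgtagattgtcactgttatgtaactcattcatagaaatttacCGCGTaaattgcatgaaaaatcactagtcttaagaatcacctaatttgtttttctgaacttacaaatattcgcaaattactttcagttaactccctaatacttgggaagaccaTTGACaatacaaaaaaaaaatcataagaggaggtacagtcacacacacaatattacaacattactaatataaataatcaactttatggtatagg
NAC056, chr3:5243182-5243431, plus strand: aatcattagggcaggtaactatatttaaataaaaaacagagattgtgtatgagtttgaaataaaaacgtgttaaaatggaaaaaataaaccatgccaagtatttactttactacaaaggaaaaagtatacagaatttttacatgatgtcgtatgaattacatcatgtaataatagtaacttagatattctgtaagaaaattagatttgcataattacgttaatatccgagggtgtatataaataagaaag
NAC029, chr1:26121830-26122079, plus strand: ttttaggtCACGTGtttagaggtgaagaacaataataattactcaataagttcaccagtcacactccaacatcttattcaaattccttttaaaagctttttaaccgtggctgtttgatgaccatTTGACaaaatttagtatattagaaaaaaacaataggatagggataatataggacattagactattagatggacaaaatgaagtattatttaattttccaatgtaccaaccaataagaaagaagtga
CLPD, chr5:20763846-20764095, plus strand: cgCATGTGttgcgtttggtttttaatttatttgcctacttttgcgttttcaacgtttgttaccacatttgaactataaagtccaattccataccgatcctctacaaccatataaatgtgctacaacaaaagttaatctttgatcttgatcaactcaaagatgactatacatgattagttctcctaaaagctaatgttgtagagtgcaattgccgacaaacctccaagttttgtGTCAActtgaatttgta

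NAC019 had a G-box 126 bases before its start, and its neighbour NAC018 had none of the searched letters in the window. NAC055 had TTGAC 94 bases and CGCGT 207 bases before its start, and its neighbour NAC056 had none. NAC029 had a G-box 242 bases and TTGAC 126 bases before its start. Across 23400 windows of tested genes, CACGTG was found in 7.12%, TTGAC in 45.3%, CGCGT in 7.37% and CATGTG in 11.3%. Among the 61 tested NAC genes the counts were 7 with CACGTG (11.5%), 21 with TTGAC (34.4%), 7 with CGCGT (11.5%) and 6 with CATGTG (9.84%). NAC062 held CACGTG and CGCGT 3 times, NAC081 held TTGAC, and ANAC102 held none of these letters. A match describes the letters and does not show that a factor binds.

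The microRNA miR164 and the site it pairs with in NAC messengers are shown next, because 5 boundary genes and the senescence factor NAC92 carry it. The mature sequence from the RefSeq annotation has its seed, bases 2 to 8, in capitals, and in the gene sequences capitals mark the bases that pair with miR164a, with G:U pairs counted as mismatches.
miR164a, chr2:19520770-19520790, plus strand: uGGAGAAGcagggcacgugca
miR164c-5p, chr5:9852684-9852704, plus strand: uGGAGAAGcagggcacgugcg
NAC021 (NAC1), chr1:20947142-20947162, minus strand: aGCACGTaCCCTGCTTCTCCA
NAC100, chr5:24701687-24701707, minus strand: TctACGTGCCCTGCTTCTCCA
NAC079, chr5:2436958-2436978, plus strand: TttACGTGCCCTGCTTCTCCA
NAC054 (CUC1), chr3:5111137-5111157, plus strand: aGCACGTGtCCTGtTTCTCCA
NAC098 (CUC2), chr5:21902301-21902321, minus strand: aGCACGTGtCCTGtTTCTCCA
NAC92 (ORE1), chr5:15858797-15858817, minus strand: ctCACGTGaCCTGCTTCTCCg

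In the exons of 23401 tested genes, 13 genes (0.0556%) held a stretch with at most 4 mismatches to miR164a, and 6 of these were NAC members. With at most 3 mismatches there were 6 genes, of which 5 were members and the other was AT3G12977. NAC054 and NAC098, which together set the boundary around the shoot meristem, have the same 21 bases.

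Levels of the family spanned a wide range. In the genotype with the highest mean, 15 members reached 10 RPKM, 30 lay between 1 and 10 RPKM, 16 lay under 1 RPKM and 4 had no reads. The highest level was that of ANAC102, a stress factor of the ATAF group, at 55.6 RPKM in JMJ28np5-OE. Next came NAC083 (VNI2), a repressor linked to xylem vessels and leaf ageing, at 49.4 RPKM in jmj28, and NAC081 (ATAF2), a stress and defence factor, at 45.6 RPKM in JMJ28np5-OE. NAC078, a membrane-tethered factor linked to flavonoid synthesis in strong light, reached 34.2 RPKM, and NAC082, a mediator of responses to impaired ribosomes, reached 30.4 RPKM, both in jmj28. NAC083, NAC078 and NAC082 were not called in any comparison, and NAC083 held 46.1 and 47.2 RPKM in WT and 49.3 and 49.4 RPKM in jmj28. Members without reads were NAC006, NAC012 (the fibre wall factor SND1), ANAC023 and ANAC093. A count of 3 reads in all 6 libraries together would be 0.0431, 0.0261, 0.0349 and 0.0412 RPKM for them, the upper limit a count of 0 allows, which covers counting error only.

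In JMJ28np5-OE against WT, 5 of the 61 tested NAC genes rose and none fell. They were NAC029, NAC055, NAC019, NAC018 and NAC081, with changes from 1.43-fold for NAC081 to 3.25-fold for NAC029 according to the authors' deposited table. They were 8.2% of the members, beside 2.87% of all genes called higher, 0.684% called lower and 3.55% called in either direction. Over all tested members the median log2 fold change was 0.08, with 41 above and 20 below 0, and over all genes it was 0.00, with 11913 above and 11629 below 0. In members of at least 1 RPKM the median was 0.10. At an unadjusted p under 0.05 there were 7 members (11.5%), all higher, beside 14.2% of all genes. No test compares the family with other genes, so these shares and medians are descriptions. In whole seedlings, more cells that express a gene and more RNA of it per cell cannot be told apart.

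NAC029 (NAP, AT1G69490, chromosome 1, 26122080 to 26123514) promotes leaf senescence and links abscisic acid to it. It had 2.52 and 2.48 RPKM in the JMJ28np5-OE libraries, 1.30 and 1.02 RPKM in the jmj28 libraries, and a derived mean of 0.776 RPKM in WT. The JMJ28np5-OE libraries were the highest and close to each other, at 39 and 33 reads, so the gene was measured on few reads. Its log2 fold change of JMJ28np5-OE against WT was 1.70 (FDR 0.00176) according to the authors' deposited table. The value for jmj28 against WT was 0.55 (FDR 1, authors' deposited table), so NAC029 is the called member of JMJ28np5-OE whose jmj28 mean lay above WT, without a call.

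NAC055 (AT3G15500, chromosome 3, 5234457 to 5236196) and NAC019 (AT1G52890, chromosome 1, 19696923 to 19698482) are close relatives that act in drought, abscisic acid and jasmonate responses. NAC055 had 0.889 and 0.770 RPKM in WT, 1.62 and 3.05 RPKM in JMJ28np5-OE, and a derived 0.619 RPKM in jmj28. NAC019 had 1.16 and 2.46 RPKM in WT, 5.82 and 2.83 RPKM in JMJ28np5-OE, and a derived 0.651 RPKM in jmj28. For both genes each JMJ28np5-OE library lay above each WT library, but the JMJ28np5-OE libraries were far apart, and for NAC019 the WT libraries were too. The higher JMJ28np5-OE library was the deeper for NAC019 and the shallower for NAC055. Their log2 fold changes against WT were 1.49 (FDR 0.0221) for NAC055 and 1.30 (FDR 0.0444) for NAC019 according to the authors' deposited table. For NAC019, leaving out the deeper JMJ28np5-OE library gave a log2 ratio of RPKM means of 0.67, and leaving out the shallower WT library gave 1.93, moves of more than 1.5-fold in either direction. For NAC055 the ratio stayed between 0.99 and 1.90 when a library was left out.

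NAC018 (NAM, also NARS2, AT1G52880, chromosome 1, 19688708 to 19690589) acts with NAC056 (NARS1) in the shaping of the seed. It had 3.86 and 4.48 RPKM in WT, 6.70 and 7.25 RPKM in JMJ28np5-OE and a derived 3.95 RPKM in jmj28. The groups did not overlap, and the fold change of 1.71 (log2 0.78, FDR 0.00122) according to the authors' deposited table was larger than the gap between libraries of either genotype. NAC056 did not follow it: this gene had 2.80 and 2.56 RPKM in WT, 1.93 and 2.45 RPKM in jmj28 and a derived 1.99 RPKM in JMJ28np5-OE. Its log2 fold change in JMJ28np5-OE against WT was -0.41 (FDR 0.797) according to the authors' deposited table. Thus the genes of each neighbouring set share a strand, while 3 of the 4 were called and the fourth was not. The difference between the neighbours' changes was not tested.

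NAC081 (ATAF2, AT5G08790, chromosome 5, 2858849 to 2860558) had the highest level among the genes that rose. It had 33.7 and 31.2 RPKM in WT, 42.7 and 48.5 RPKM in JMJ28np5-OE and a derived 29.2 RPKM in jmj28, with no overlap between WT and JMJ28np5-OE. The log2 fold change against WT was 0.51 (FDR 0.00765) according to the authors' deposited table. Its 3' part shares 158 bases with AT5G08780 on the opposite strand, and the library kit does not mark strand, so reads there cannot be told apart. That neighbour had 5.26 RPKM in WT and a derived 4.31 RPKM in JMJ28np5-OE.

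**Figure D1:**
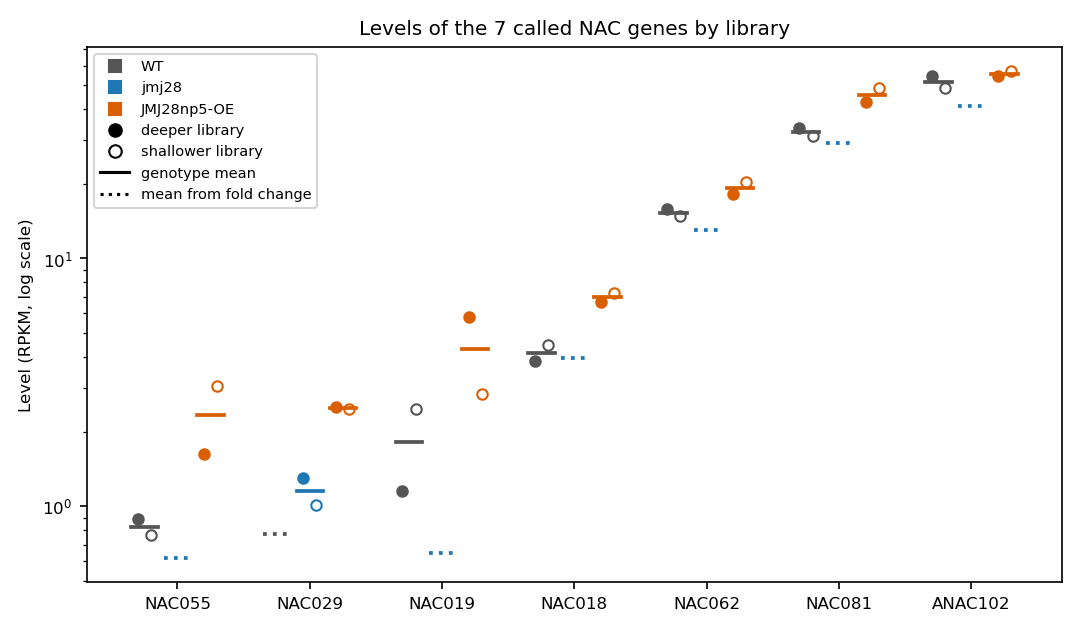
Level in RPKM on a log scale of the 7 NAC genes called in any comparison, by genotype. Filled points are the deeper and open points the shallower library, solid bars the genotype mean and dotted bars means derived from the fold change. NAC019, at 5.82 and 2.83 RPKM, and NAC055, at 1.62 and 3.05 RPKM, show the widest gaps between JMJ28np5-OE libraries.

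In jmj28 against WT, only ANAC102 was called among the 61 members. ANAC102 (AT5G63790, chromosome 5, 25526509 to 25528281), a factor of the ATAF group known from low-oxygen tolerance of seeds and from responses to strong light, fell by 0.37 on the log2 scale (FDR 0.0102), or 1.29-fold, according to the authors' deposited table. The WT libraries had 54.6 and 48.7 RPKM, JMJ28np5-OE had 54.4 and 56.8 RPKM, and the jmj28 mean was a derived 41.0 RPKM. The derived mean lay below both WT libraries, and the WT and JMJ28np5-OE libraries overlapped. Its 3' part overlaps SHA1 on the opposite strand over 85 bases, and the log2 fold change of SHA1 was -0.08 (FDR 1) for jmj28 against WT and -0.45 (FDR 0.00926) for jmj28 against JMJ28np5-OE according to the authors' deposited tables. The 1 call is 1.64% of the members, beside 1.1% of all genes called lower, 0.208% called higher and 1.3% called in either direction, so it says nothing particular of the family. The median over members was -0.03, with 28 above and 33 below 0, and over all genes it was 0.00. At an unadjusted p under 0.05, members numbered 4 (6.56%) here, 1 higher and 3 lower, beside 8.59% of all genes.

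In jmj28 against JMJ28np5-OE, 7 members were lower in jmj28 and none higher. They were the 5 genes above together with ANAC102 and NAC062. This is 11.5% of the members, beside 7.29% of all genes called lower, 4.12% called higher and 11.4% called in either direction. NAC019 differed most, at -2.80 (FDR 3.55e-07), or 6.96-fold, followed by NAC055 at -1.96 (FDR 0.000849) according to the authors' deposited table. Without the deeper JMJ28np5-OE library the log2 ratio of NAC019 was -2.18. NAC029 stood at -1.15 (FDR 0.0417), NAC018 at -0.88 (FDR 0.000118), NAC081 at -0.70 (FDR 1.54e-05) and ANAC102 at -0.49 (FDR 9.92e-06) according to the authors' deposited table. At an unadjusted p under 0.05 there were 13 members (21.3%), 2 higher and 11 lower in jmj28, beside 24.3% of all genes. This comparison uses the same jmj28 and JMJ28np5-OE libraries as the comparisons with WT and is no independent evidence of them.

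NAC062 (NTL6, AT3G49530, chromosome 3, 18362443 to 18364959) encodes a membrane-tethered factor released in the cold and under stress of the endoplasmic reticulum, which then raises defence genes. It had 15.8 and 14.8 RPKM in WT, 18.3 and 20.3 RPKM in JMJ28np5-OE and a derived 13.0 RPKM in jmj28. WT lay between the other genotypes and was not called against either, with log2 fold changes of -0.27 (FDR 0.873) in jmj28 and 0.35 (FDR 0.229) in JMJ28np5-OE according to the authors' deposited tables. The comparison of the 2 lines with each other gave -0.62 (FDR 0.000544) according to the authors' deposited table.

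**Figure D2:**
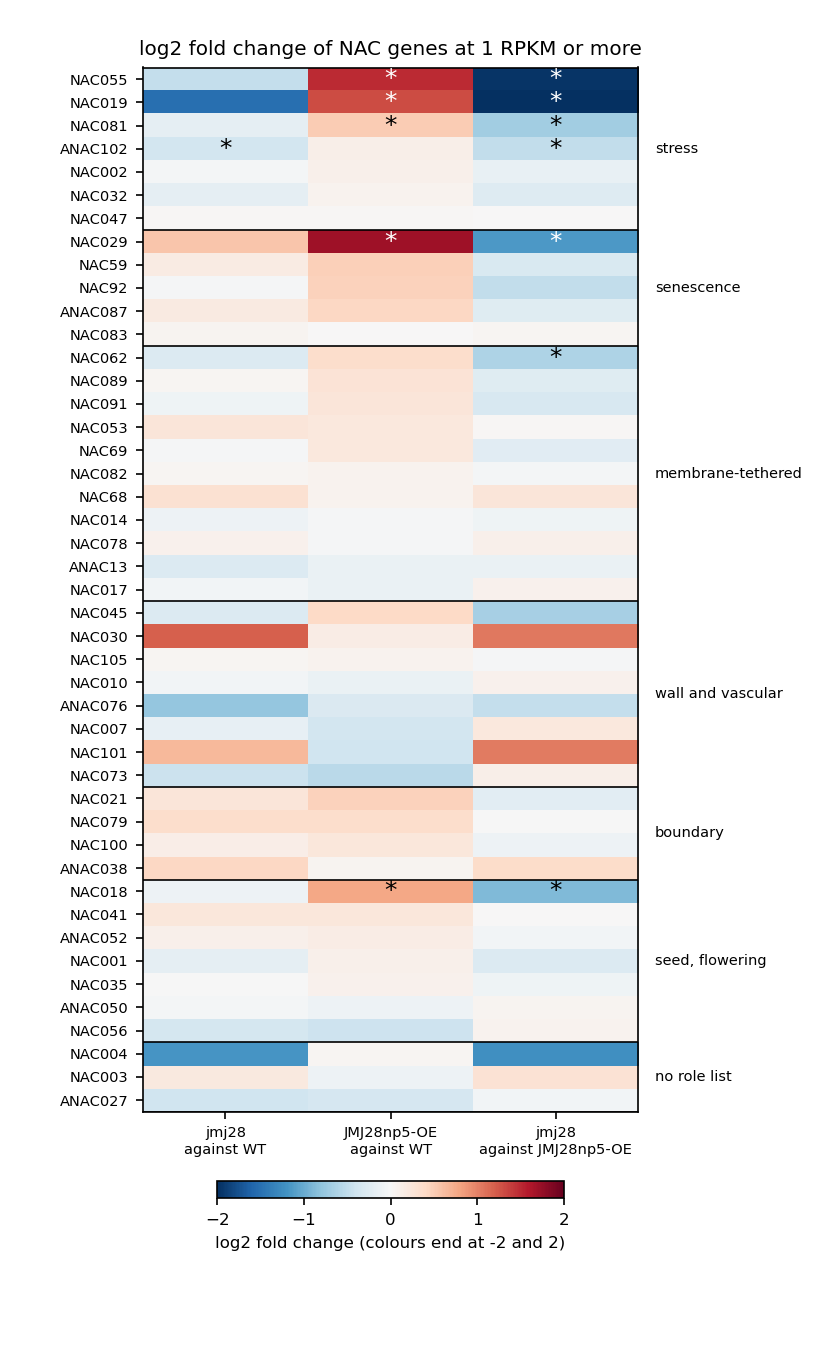
log2 fold change according to the authors' deposited tables for the 45 NAC genes with a mean of at least 1 RPKM in any genotype, 1 row per gene in role groups and 1 column per comparison. Red is higher, blue is lower, and an asterisk marks an FDR under 0.05. Asterisks stand in the stress and senescence groups and at NAC062 and NAC018.

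Stress factors of the ATAF group and their relatives held most of the calls. In JMJ28np5-OE 3 of 7 tested genes rose, beside 2.87% of all genes called higher. In jmj28 6 lay below WT, of which 1 fell, beside 1.1% of all genes called lower. The deposited log2 fold change in JMJ28np5-OE was above 0 for all 7, but for NAC047 it was 0.02 and its mean, 6.22 RPKM against a derived 6.26 RPKM in WT, was not higher. The median log2 fold change was 0.12 in JMJ28np5-OE and -0.18 in jmj28. The same role list holds RD26, given below, and anac096, whose symbols lie outside the rule. In jmj28 anac096 went the other way, at a log2 fold change of 0.81 (FDR 0.954, authors' deposited table). In JMJ28np5-OE it was 0.09, without a call. The members without a call against WT other than ANAC102 in JMJ28np5-OE were NAC002 (ATAF1), NAC032 and NAC047. NAC002, a regulator of carbon starvation and abscisic acid responses, had 23.4 and 23.9 RPKM in WT and 23.3 and 26.7 RPKM in JMJ28np5-OE. NAC032, a relative linked to stress-induced senescence, had 8.31 and 8.60 RPKM in WT and 9.10 and 8.26 RPKM in JMJ28np5-OE, so that both sets of libraries overlapped. NAC047, a factor of leaf movement under flooding, lay at 6.83 and 6.21 RPKM in jmj28 and 7.07 and 5.37 RPKM in JMJ28np5-OE.

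Touch and early stress genes lay on the same side of WT as most of these stress factors. All 15 genes of a handling and early stress list, among them TCH2, ZAT10, WRKY40 and CAF1A, lay below WT in jmj28. Of the 15, 5 were called, beside 1.1% of all genes called lower. All 15 lay above WT in JMJ28np5-OE, with 13 called, beside 2.87% of all genes called higher. The list was chosen with earlier results of these data known, so its shared direction is a description only. The summed level of the 15 genes was 257.2 and 172.5 RPKM in the deeper and shallower WT libraries. It was 372.1 and 582.1 RPKM in the JMJ28np5-OE libraries and 123.2 RPKM as a mean in jmj28, and none of the genes was at 0. The shallower JMJ28np5-OE library was the higher for this sum and, among the 7 called members, for NAC055, NAC018, NAC081, NAC062 and ANAC102. The deeper was the higher for NAC019 and, by a small margin, NAC029. The shallower also tended to be higher in general, with a median log2 ratio of deeper over shallower of -0.0615 over all genes of at least 1 RPKM. For NAC members of that level the median was -0.131. In WT the deeper library was the higher for the sum and for NAC055, NAC081, NAC062 and ANAC102. The shallower WT library was the higher for NAC018 and NAC019, and the WT libraries of NAC029 are not known. The part of handling or early stress in the NAC values was not tested.

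Among 6 tested senescence factors NAC029 alone was called. The deposited log2 fold change in JMJ28np5-OE was above 0 for all 6, but for NAC083 it was 0.01 and its mean, a derived 46.1 RPKM against 46.7 RPKM in WT, was not higher. Of the senescence factors with symbols outside the rule, anac046 and JUB1 lay below WT in JMJ28np5-OE, at -0.10 and -0.42 without a call. The others, anac016, anac036 and anac061, lay above WT there. NAC92 (ORE1), a central promoter of age-dependent leaf senescence, had 4.44 and 4.72 RPKM in jmj28, 5.23 and 7.17 RPKM in JMJ28np5-OE and a derived 4.58 RPKM in WT. Its log2 fold change in JMJ28np5-OE against WT was 0.46 (FDR 0.53) according to the authors' deposited table. NAC59 (ORS1), a close relative with the same role, had 5.75 and 10.6 RPKM in JMJ28np5-OE, which enclose its jmj28 libraries at 7.06 and 6.69 RPKM. ANAC087, which acts in the death of root cap cells, had 4.13 and 5.27 RPKM in JMJ28np5-OE and a derived 3.57 RPKM in WT, without a call. NAC090 had at most 2 reads in a genotype and gives no usable change. The median log2 fold change of the 5 members of at least 1 RPKM, which leaves NAC090 out, was 0.457 in JMJ28np5-OE and 0.163 in jmj28, and with NAC090 it was 0.465 and 0.105.

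Membrane-tethered factors and their relatives numbered 12 tested genes, of which none was called against WT in either line (0 in jmj28 and 1 in JMJ28np5-OE at an unadjusted p under 0.05). They had log2 fold changes from -0.40 to 0.35 in JMJ28np5-OE and from -0.27 to 0.38 in jmj28, and medians of 0.07 and 0.01. NAC017, which carries signals of disturbed mitochondria to the nucleus, had 21.1 and 21.9 RPKM in WT, 22.0 and 20.2 RPKM in jmj28 and a derived 19.2 RPKM in JMJ28np5-OE. ANAC13, another factor of the mitochondrial response, had 5.40 and 6.22 RPKM in WT and 5.66 and 4.57 RPKM in JMJ28np5-OE, which overlap. NAC053, linked to drought-induced oxidative stress and to the proteasome, had 10.4 and 10.9 RPKM in jmj28 and 9.50 and 10.6 RPKM in JMJ28np5-OE, and a derived 8.80 RPKM in WT. NAC091 (TIP), first found as a partner of a viral coat protein, had 11.9 and 10.5 RPKM in WT and 12.9 and 13.4 RPKM in JMJ28np5-OE, without a call (log2 0.24, FDR 0.674, authors' deposited table). NAC089, a factor of cell death under stress of the endoplasmic reticulum, had 4.86 and 5.28 RPKM in jmj28 and 5.41 and 6.08 RPKM in JMJ28np5-OE. NAC69 had 6.67 and 6.88 RPKM in jmj28 and 7.30 and 8.04 RPKM in JMJ28np5-OE, and NAC68 (NTM1), a factor that restrains cell division, had 2.96 and 3.31 RPKM in jmj28 and 2.69 and 2.39 RPKM in JMJ28np5-OE. NAC014 had 6.18 and 6.66 RPKM in WT and 6.71 and 5.604 RPKM in JMJ28np5-OE, and NAC60, which dampens sugar and abscisic acid signals in seedlings, reached 0.258 RPKM. No gene of this group apart from NAC062 was called between any genotypes.

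Wall and vascular factors were mostly low in these seedlings, and none of 15 was called in any comparison. At an unadjusted p under 0.05 there was 1 in jmj28 against WT, 0 in JMJ28np5-OE against WT and 3 between the lines. Only 8 reached 1 RPKM. NAC030 (VND7), the master factor of xylem vessels, had 1.42 and 1.43 RPKM in jmj28, 0.680 and 0.622 RPKM in JMJ28np5-OE and a derived 0.603 RPKM in WT. The jmj28 libraries held 32 and 28 reads and lay above both others, but the log2 fold change of 1.20 against WT had an FDR of 0.287 according to the authors' deposited table. NAC101 (VND6), which directs metaxylem vessels, had 1.53 and 2.79 RPKM in jmj28 and 1.24 and 1.45 RPKM in WT, also without a call (log2 0.64, FDR 1, authors' deposited table). ANAC076 (VND2) had 1.40 and 0.965 RPKM in WT, 1.20 and 0.722 RPKM in JMJ28np5-OE and a derived 0.711 RPKM in jmj28. NAC007 (VND4), NAC073 (SND2) and NAC010 (SND3) reached 2.16, 1.74 and 2.20 RPKM as their highest means and had FDR values of at least 0.81 in every comparison of the authors' deposited tables. NAC045 and NAC086, which direct the loss of the nucleus in sieve elements, reached 1.30 and 0.697 RPKM. NAC105 (VND3) had 1.42 and 2.18 RPKM in jmj28 and 1.79 and 1.68 RPKM in JMJ28np5-OE, and NAC037 (VND1), NAC026 (VND5), ANAC020, a phloem factor, and NAC104 (XND1), a repressor of xylem vessels, reached 0.877, 0.678, 0.755 and 0.991 RPKM. The fibre wall factors NAC043 (NST1) and NAC066 (NST2) had 2 reads each over all libraries, NAC043 in WT and NAC066 in JMJ28np5-OE, too few to compare.

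Boundary and meristem factors lay slightly above WT in jmj28 in all 8 tested cases, with log2 fold changes from 0.09 to 0.42 and a median of 0.285, and none was called (0 at an unadjusted p under 0.05). In JMJ28np5-OE 6 of the 8 lay above WT, with a median of 0.296, no call and 1 at an unadjusted p under 0.05. The boundary gene anac058, whose symbol lies outside the rule, had log2 fold changes of -0.09 in jmj28 and 0.23 in JMJ28np5-OE, without a call. NAC021 (NAC1), which carries auxin signals to lateral root formation, had 6.96 and 7.05 RPKM in jmj28, 7.31 and 8.40 RPKM in JMJ28np5-OE and a derived 5.79 RPKM in WT. Its log2 fold change in JMJ28np5-OE was 0.46 (FDR 0.0854), the closest to a call in the group, according to the authors' deposited table. NAC079 had 4.18 and 3.23 RPKM in jmj28 and 3.08 and 4.22 RPKM in JMJ28np5-OE, and ANAC038, another relative, had 3.24 and 3.18 RPKM in jmj28. NAC100 had 2.34 and 2.48 RPKM in jmj28 and 2.51 and 2.46 RPKM in JMJ28np5-OE, and ANAC094 reached 0.263 RPKM. These libraries overlapped between jmj28 and JMJ28np5-OE for NAC079 and NAC100. The cup-shaped cotyledon genes NAC054 (CUC1), NAC098 (CUC2) and NAC031 (CUC3), which keep organs apart at the shoot tip, stayed under 1 RPKM at 0.642, 0.641 and 0.666 RPKM as their highest means. The 6 members with a miR164 site shown above, a set chosen after values were seen, lay above WT in JMJ28np5-OE in 6 of 6 cases. Of all 61 tested members, 41 had a log2 fold change above 0 there. The 6 had log2 fold changes from 0.23 to 0.80 and a median of 0.44, and no call (smallest FDR 0.0854, authors' deposited table). In jmj28 against WT their log2 fold changes ran from -0.03 to 0.38, with 5 of the 6 above 0, beside 28 of all 61 tested members. Mature miR164 was not analysed here.

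Root marker genes are given beside these groups, with median log2 fold changes of 0.346 in jmj28 and -0.152 in JMJ28np5-OE. Of 10 root markers, 8 had a deposited log2 fold change above 0 in jmj28 and 2 were called, AGP30 and TIP2;3, while SCR, at -0.01, had means of 12.7 RPKM in jmj28 and 12.5 RPKM in WT. Of all genes, 0.208% were called higher in jmj28. In JMJ28np5-OE 2 of the 10 were above 0, TIP2;3 at 0.19 and MYB36 at 0.86 (FDR 0.0559, authors' deposited table), and none was called (2 at an unadjusted p under 0.05). In jmj28 against JMJ28np5-OE 9 of the 10 were above 0 and 4 were called, beside 4.12% of all genes called higher. The summed level of the root markers was 72.6 RPKM in WT, 99.8 RPKM in jmj28 and 68.3 RPKM in JMJ28np5-OE, with none at 0. From WT to jmj28, TIP2;3 went from a derived 11.8 to 24.3 RPKM, AGP30 from 5.65 to 11.3 RPKM and CASP1 from 21.6 to 28.0 RPKM. Little changed for SHR (7.82 and 8.28 RPKM), COBL9 (2.01 and 2.17 RPKM) and EXPA7 (6.62 and 6.33 RPKM). The part of root share in the values of the boundary and vascular genes was not tested. The root cap factors of the family, FEZ, SMB, BRN1 and BRN2, have symbols outside the rule and were not called in any comparison.

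Seed, flowering and other factors held NAC018 and no other call among 8 tested genes. NAC035 (LOV1), which delays flowering in long days, had 6.80 and 6.66 RPKM in jmj28, 5.76 and 8.07 RPKM in JMJ28np5-OE and a derived 6.62 RPKM in WT. Its log2 fold changes of 0.00 in jmj28 and 0.08 in JMJ28np5-OE according to the authors' deposited tables were smaller than the gap between the JMJ28np5-OE libraries. ANAC050 and ANAC052, known as partners of JMJ14, a demethylase of histone H3 lysine 4, were not called either. ANAC050 had 10.4 and 10.9 RPKM in WT and 10.2 and 10.95 RPKM in jmj28. ANAC052 had 17.3 and 15.9 RPKM in jmj28 and 15.2 and 18.2 RPKM in JMJ28np5-OE, so its libraries overlapped. NAC041 and NAC001 reached 10.5 and 5.47 RPKM without a call. Of the 5 tested genes on no role list, NAC004 had 1.03 and 1.07 RPKM in WT, 0.900 and 1.24 RPKM in JMJ28np5-OE and a derived 0.474 RPKM in jmj28, with a log2 fold change of -1.19 (FDR 0.578) according to the authors' deposited table. Its neighbour NAC003 lay at 9.84 and 12.1 RPKM in jmj28 and 10.03 and 8.48 RPKM in WT. ANAC027 had 10.8 and 12.3 RPKM in WT, 8.21 and 9.73 RPKM in jmj28 and a derived 8.99 RPKM in JMJ28np5-OE, without a call, and it overlaps AT1G64100 on the same strand, so its reads can be shared. Hardly any reads fell on NAC005, NAC025 and ANAC011, at highest means of 0.0626, 0.0523 and 0.295 RPKM.

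**Figure D3:**
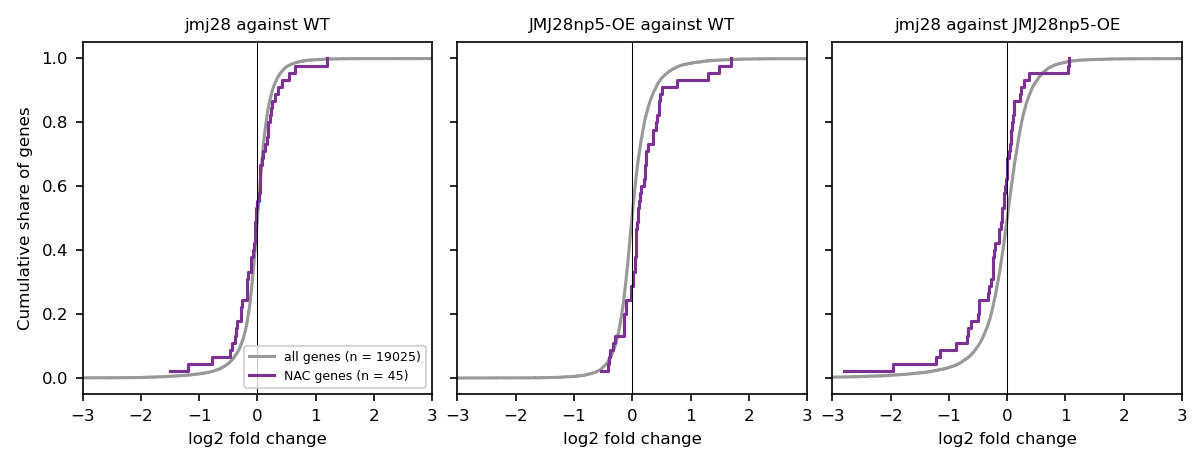
Cumulative share of genes by log2 fold change, for the 45 NAC genes (purple) and all 19025 tested genes (grey) with a mean of at least 1 RPKM, 1 panel per comparison. The medians of the NAC genes are -0.03, 0.10 and -0.09 from left to right, and those of all genes lie at 0.00, -0.01 and 0.00.

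Libraries of 1 genotype differed by at least 1.5-fold in 1 of 24 members with known libraries and at least 1 RPKM in WT, 2 of 30 in jmj28 and 4 of 32 in JMJ28np5-OE. These are 4.17%, 6.67% and 12.5%, beside 3.81%, 4.51% and 10% of all genes. NAC019 was in this class in WT, 2.13-fold apart, and in JMJ28np5-OE, 2.05-fold apart, and NAC055 and NAC59 were 1.88-fold and 1.85-fold apart in JMJ28np5-OE. Over all genes above 5 RPKM the SD of the log2 ratio between libraries was 0.27 in JMJ28np5-OE and 0.18 in WT and in jmj28.

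NAC genes with other symbols were looked at beside the members. Of 36 such loci, found by RefSeq names and the role lists, 32 were tested and 3 were called, each lower in jmj28 than in JMJ28np5-OE. These are 9.38%, near the 7.29% of all genes called lower in that comparison, so the count says nothing particular of them. The gene listed as anac036, a relative whose excess dwarfs plants, had 3.86 and 4.25 RPKM in WT, 6.81 and 6.72 RPKM in JMJ28np5-OE and a derived 2.53 RPKM in jmj28. It rose by 0.77 (FDR 0.0346) on the log2 scale in JMJ28np5-OE and was lower in jmj28 than in JMJ28np5-OE by -1.48 (FDR 6.29e-07) according to the authors' deposited tables. RD26, a close relative of NAC019 and NAC055, had 3.80 and 2.91 RPKM in WT, 5.20 and 5.16 RPKM in JMJ28np5-OE and a derived 3.17 RPKM in jmj28. RD26 was called between the 2 lines (log2 -0.75, FDR 0.0144) but not against WT (log2 0.62, FDR 0.109) according to the authors' deposited tables. The gene listed as anac016, a promoter of senescence and drought responses, had 1.08 and 1.37 RPKM in WT, 1.58 and 1.35 RPKM in JMJ28np5-OE and a derived 0.571 RPKM in jmj28, and was called between the lines at -1.43 (FDR 0.0052) according to the authors' deposited table. SOG1, the NAC factor of the DNA damage response, had 8.08 and 9.39 RPKM in WT and 8.13 and 8.11 RPKM in JMJ28np5-OE, and JUB1, which prolongs leaf life, had 2.84 and 3.05 RPKM in WT and 2.47 and 3.21 RPKM in jmj28. Neither was called.

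Genes described as direct targets of NAC factors were followed in short lists. The lists do not separate targets that a factor raises from those it lowers. CLPD (ERD1, AT5G51070), a chloroplast protease subunit raised by dehydration and bound by NAC019, NAC055 and RD26, had 47.2 and 48.6 RPKM in WT, 71.7 and 72.1 RPKM in JMJ28np5-OE and a derived 46.1 RPKM in jmj28. The JMJ28np5-OE libraries lay well above WT and close to each other, and the log2 fold change was 0.61 (FDR 1.21e-09), or 1.53-fold, according to the authors' deposited table. In the window shown above, CATGTG lies 248 bases before the CLPD start and TTGAC, on the other strand, 17 bases before it. The other tested targets of these 3 factors were not called: the salicylic acid synthesis gene ICS1 (listed as EDS16) had 5.50 and 9.17 RPKM in WT and 10.3 and 5.05 RPKM in JMJ28np5-OE. The ICS1 libraries overlap, and its higher JMJ28np5-OE library is the deeper. The salicylic acid glucosyltransferase gene UGT74F2 had 18.4 RPKM in both WT libraries and 17.5 and 16.0 RPKM in JMJ28np5-OE. BSMT1, a methyltransferase of salicylic acid, had no reads in any library, against an upper limit of 0.0248 RPKM.

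Targets of NAC029 and NAC92 gave 1 call against WT among 8 genes, beside 2.87% of all genes called higher in JMJ28np5-OE. SAG113, a protein phosphatase of the abscisic acid pathway bound by NAC029, had 1.51 and 1.88 RPKM in WT, 4.03 and 2.57 RPKM in JMJ28np5-OE and a derived 1.55 RPKM in jmj28. It rose in JMJ28np5-OE by 1.01 (FDR 0.0238) on the log2 scale according to the authors' deposited table, with libraries that do not overlap those of WT. AAO3, the abscisic aldehyde oxidase also bound by NAC029, had 4.85 and 4.94 RPKM in WT and 5.61 and 5.40 RPKM in JMJ28np5-OE, without a call. Between the lines 2 of the 8 were called, both lower in jmj28, beside 7.29% of all genes called lower. These were SAG113 at -1.16 (FDR 0.00313) and the chlorophyll breakdown gene NYC1 at -0.47 (FDR 0.00369) according to the authors' deposited table. SGR1, also of chlorophyll breakdown, was not called (-0.35, FDR 0.241, authors' deposited table). The nuclease genes BFN1 (listed as ENDO1) and RNS3, targets of NAC92, had highest means of 5.14 and 10.5 RPKM, both in jmj28, and were not called. Of the 8, 7 had a log2 fold change above 0 in JMJ28np5-OE against WT (authors' deposited table), with a median of 0.23, but for BFN1 it was 0.01 and its mean, a derived 4.46 RPKM against 4.50 RPKM in WT, was not higher.

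Targets of the wall factors lay below WT in JMJ28np5-OE in all 7 cases, with a median log2 fold change of -0.56. At FDR 0.05 1 of them fell, beside 0.684% of all genes called lower. XCP2, a cysteine protease of dying xylem vessels, had 58.1 RPKM in both WT libraries, 60.8 and 58.5 RPKM in jmj28 and a derived 34.0 RPKM in JMJ28np5-OE. Its log2 fold change was -0.75 (FDR 0.0298) against WT according to the authors' deposited table. In jmj28 against JMJ28np5-OE 5 of the 7 were called higher, beside 4.12% of all genes. These were XCP2 at 0.75 (FDR 0.0114), XCP1, the companion protease, at 0.82 (FDR 0.000811), and the secondary-wall cellulose synthases CESA8, CESA7 and CESA4 at 0.68, 0.67 and 0.55 (FDR 0.0189, 0.0289 and 0.0278) according to the authors' deposited table. The wall master regulators MYB46 and MYB83, at 1.96 and 0.873 RPKM in WT, were not called, nor was any VND, NST or SND member. XCP1 and XCP2 also serve as xylem markers, and the part of xylem share in these values was not tested. The spread of the JMJ28np5-OE libraries is not known for these genes, since JMJ28np5-OE held their lowest mean.

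Targets of NAC017 and ANAC13 in the mitochondrial response were not called against WT. AOX1A, the alternative oxidase gene used as their readout, had 23.6 and 24.9 RPKM in WT, 25.9 and 23.8 RPKM in jmj28 and a derived 23.2 RPKM in JMJ28np5-OE, so the WT and jmj28 libraries overlapped and the JMJ28np5-OE mean, whose libraries are not known, lay below both. Between the lines SOT12, a sulfotransferase gene, was lower in jmj28 at -0.46 (FDR 0.048) and AT2G41380 was higher at 0.49 (FDR 0.0206) according to the authors' deposited table. DREB2A, a drought factor bound by JUB1, was lower in jmj28 than in JMJ28np5-OE at -0.67 (FDR 0.0104) according to the authors' deposited table, and GA3OX1 and DWF4, which JUB1 represses, were not called. None of the 4 tested SOG1 targets was called (at an unadjusted p under 0.05, 2 between the lines and 0 against WT). SMR5, on that list, had no reads, against an upper limit of 0.137 RPKM.

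**Figure D4:**
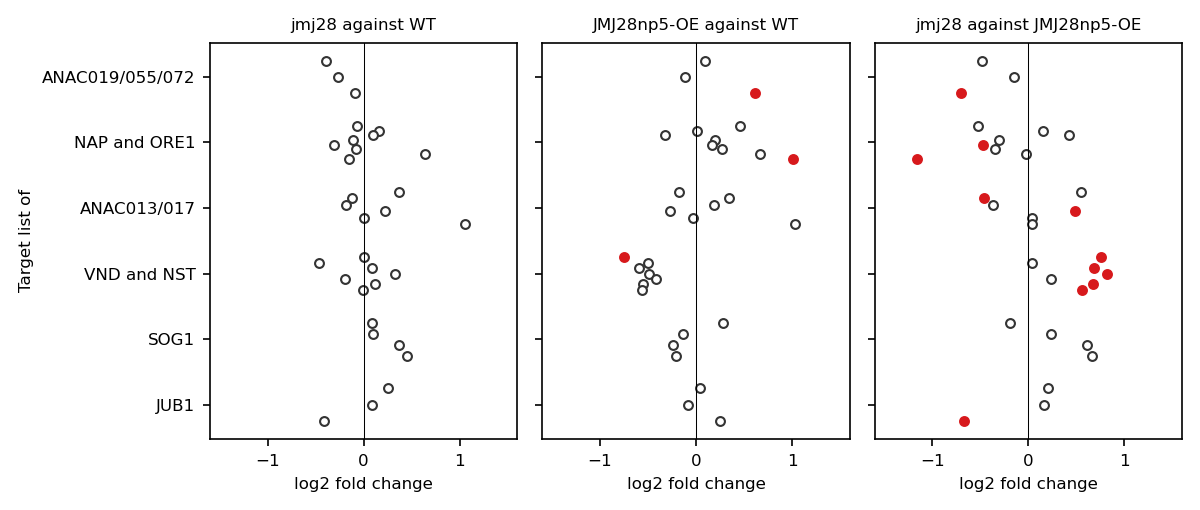
log2 fold change according to the authors' deposited tables for genes described as targets of NAC factors, 1 point per tested gene and 1 panel per comparison. Filled red points have an FDR under 0.05. The 7 VND and NST targets all lie left of 0 in JMJ28np5-OE against WT and right of 0 in jmj28 against JMJ28np5-OE.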

How the data were processed

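RNA-seq libraries of 2 samples each of WT, jmj28 and JMJ28np5-OE, sequenced as paired reads of 150 bases from a kit that does not mark strand per the labels' protocols, were assigned to genotypes from the labels. The submitters' processing notes name TAIR10 as the build, and the aligner, the counting and the test are not named in the sources used here. Per the file headers, the authors' deposited tables give for each pair of genotypes the log2 and the linear fold change with the p-value, its FDR and its Bonferroni value. The deposited level is the higher genotype mean, and its values are RPKM as they show when multiplied by exon length, since no header names the unit. A shorter deposited list of lower genes was not used.

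The members, role lists, target lists, marker lists and tests were chosen with earlier results of these data known. Whole reads of both libraries were solved from the deposited RPKM means and exon lengths for at least 98.11% of the highest and second-highest means. Lowest means were derived from the log2 fold change plus the median offset of the log2 ratio of means from it, which was 0.034, -0.024 and 0.058 in the comparisons in the order reported here with jmj28 against WT first. The solution was tested on simulated data. Coordinates of 32532 of the 32548 listed genes found in the RefSeq annotation of TAIR10.1 were identical. FDR values are the authors', over all 34262 listed genes, of which 10720 had no reads. No fit on counts was run.

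Named genes are all called members, the 2 of smallest FDR per role list and comparison, the 5 of highest level, called NAC genes outside the rule and up to 3 called targets per list. CESA4, CESA7 and CESA8, further uncalled genes, miR164 and promoter windows were chosen after values were seen. Calculations used Python 3.11.15, pandas 2.3.3 and numpy 2.4.6. Library totals ran from 10632893 to 19693228 reads, and limits from 3 reads cover counting error only. Alternatives changed the FDR threshold, the adjustment, a 2-fold limit, a filter at 1 RPKM, a pseudocount of 1 RPKM, the list of loci, and left out each library.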

Additional observations from a re-analysis of the deposited data

How the results depend on the processing

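The count of members lower in jmj28 against WT was 0 at FDR 0.01, with a 2-fold limit, with both libraries of the higher genotype 1.5-fold above the other mean, and 0 to 0 when either WT library was left out and 1.5-fold was asked, since ANAC102 changed by only 1.29-fold. The 5 members higher in JMJ28np5-OE against WT were 3 at FDR 0.01, 3 with a 2-fold limit and 3 to 5 without 1 library, where NAC029 has no known WT libraries and NAC081 changed by 1.43-fold. Without the deeper JMJ28np5-OE library NAC019 stood at 0.67 on the log2 scale. The 7 members lower in jmj28 against JMJ28np5-OE were 3 with a 2-fold limit, 4 with both libraries 1.5-fold apart from the other mean and 5 to 6 without 1 JMJ28np5-OE library. Leaving out a jmj28 library was not run for that count, since those libraries are known for NAC029 alone. Adjusting over genes with reads alone and the filter at 1 RPKM gave the same counts as reported, and with all NAC family loci, an alternative chosen after seeing the data, the counts were 1, 6 and 10. The medians moved by less than the spread between library medians, 0.0815 on the log2 scale, under the alternatives run. That spread is about as large as the largest of these medians, so the comparison could hardly show a move. With a pseudocount of 1 RPKM the medians of -0.028, 0.083 and -0.081 became 0.005, 0.043 and -0.014, with jmj28 against WT first and the lines last. Of 36 log2 ratios of called members without 1 library, 3 moved by more than 1.5-fold, all of NAC019, and 0 changed sign.

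No paired analysis was possible because the tables give no value per replicate number. The jmj28 libraries of 6 of the 7 called members could not be recovered, so their spread in jmj28 is not known, and genes under 1 RPKM rest on few reads.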
